A study of Mus musculus with 2 samples.

Results

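The 10 genes described here belong to canonical WNT signalling and were followed across cell groups of the mouse adrenal cortex: the feedback targets Axin2, Nkd1, Notum, Apcdd1, Znrf3 and Rnf43, the R-spondin receptors Lgr4 and Lgr5, and the nuclear partners of beta-catenin Tcf7 and Tcf7l2. They were taken by symbol, 10 of the 31057 features of the count tables. The mice were males of 15 weeks, of the genotype WT, SF1-Cre; Rosa mTmG, so Cre and the membrane reporter were present in all cells. SF1-Cre is active in steroid-producing lineages, and Rosa mTmG turns from membrane tdTomato to membrane GFP where Cre has acted. The 26 adrenals of the study gave 2 libraries of 1 group, called library 1 and library 2, and their division between the libraries is not stated. Cells positive for a DNA dye and negative for DAPI, which enters dying cells, were sorted and profiled with a droplet kit that counts unique molecular identifiers (UMIs) at the 3′ end of transcripts.

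Canonical WNT ligands stabilise beta-catenin, which then acts in the nucleus with transcription factors of the TCF/LEF family. Among its direct targets are proteins that turn the signal down. Axin2 is part of the complex that degrades beta-catenin, Nkd1 binds Dishevelled inside the cell, Notum is a secreted enzyme that removes the lipid WNT needs, and Apcdd1 is a membrane inhibitor. Znrf3 and Rnf43 are ubiquitin ligases that clear Frizzled receptors from the cell surface, and R-spondins bound to Lgr4 or Lgr5 hold these ligases back. In the mouse adrenal cortex WNT activity is known to be highest in the outer zona glomerulosa, which makes aldosterone with Cyp11b2, and lower in the zona fasciculata, which makes corticosterone with Cyp11b1.

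The groups compared were cells of the same libraries, set apart by 3 genes that therefore give no results of their own. Cortical cells with at least 500 CPM (UMIs scaled to a common total per cell or group) of Aldh1a1, a retinaldehyde dehydrogenase of the inner cortex, were called Aldh1a1-high (28 cells of library 1 and 25 of library 2). Of the others, cells with at least 2000 CPM of Cyp11b1 were called Cyp11b1-high (146 and 167 cells), and those with 500 to 2000 CPM Cyp11b1-intermediate (594 and 204). Cells under 500 CPM of both Cyp11b1 and Cyp11b2 were called low in both (3517 and 1141), and those with at least 500 CPM of Cyp11b2 but not of Cyp11b1 were called Cyp11b2-high (71 and 60), the group that the others were set against. These groups are ranges of continuous levels: within 20% of the Cyp11b2 threshold lay 47 cells below and 33 above it in library 1, and 39 below and 29 above it in library 2. Cyp11b1 and Cyp11b2 are close paralogs whose reads may be split wrongly, which the counts cannot resolve.

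Library 1 held 92905273 UMIs and library 2 held 28023733, and 4420 and 1636 cells were kept, with medians of 18561.5 and 16062 UMIs per cell. Median depth of the groups ran from 14718 UMIs in Aldh1a1-high cells of library 2 to 22929 in Cyp11b2-high cells of library 1. The libraries shared 4 barcodes. Some markers not used for grouping set groups apart, but cells low in both were less clearly apart from Cyp11b2-high cells. The 5 zona glomerulosa markers besides Cyp11b2 summed to 2961 and 4107 CPM in cells low in both, against 3957 and 5444 CPM in Cyp11b2-high cells. The 4 zona fasciculata markers besides Cyp11b1 summed to 1556 and 1305 CPM in cells low in both, against 2687 and 2655 CPM in Cyp11b2-high cells. Of these, Akr1b7 (1083 and 866 against 2146 and 2195 CPM) and Mrap (115 and 97.3 against 209 and 172 CPM) were lower in cells low in both. Mc2r (336 and 321 against 313 and 268 CPM) and Abcb1b (21.8 and 21.0 against 19.1 and 19.4 CPM) were slightly higher. Vsnl1, a zona glomerulosa marker, stood at 60.1 and 0 CPM in Aldh1a1-high cells and at 58.7 and 75.8 CPM in Cyp11b1-high cells, against 855 and 1049 CPM in Cyp11b2-high cells. Srd5a2, of the inner cortex list, stood at 417 and 549 CPM in Aldh1a1-high cells, against 0 and 0 in Cyp11b2-high cells. Akr1c18, an X-zone marker, had no UMI in any group. Akr1b7, a zona fasciculata marker, went against a plain zone order, with 717 and 220 CPM in Aldh1a1-high cells and 1896 and 2453 CPM in Cyp11b1-high cells, against 2146 and 2195 CPM in Cyp11b2-high cells. The 5 medulla markers summed to between 0 and 1.61 CPM over these groups. The 6 markers of capsule and stroma summed to between 99.9 and 165 CPM, nearly all of it Nr2f2 (95.2 to 149 CPM) and Rspo3 (0 to 28.5 CPM), with Pdgfra at 0 to 0.054 CPM, and their part in the results was not tested. The 8 leukocyte markers had no UMI in Aldh1a1-high cells.

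The members lie on 6 chromosomes of the genome build mm10, 5 of them on chromosome 11 (Axin2, Notum, Znrf3, Rnf43 and Tcf7). Axin2 (ENSMUSG00000000142) spans 108920349 to 108950783 there, Nkd1 (ENSMUSG00000031661) spans 88521354 to 88594884 on chromosome 8, and Tcf7l2 (ENSMUSG00000024985) spans 55741820 to 55933654 on chromosome 19. The 250 bases before their RefSeq starts (GRCm38.p6) are shown for Nkd1, Axin2 and Tcf7l2. Over Cyp11b2-high cells, Nkd1 and Axin2 both fell in Cyp11b1-high and Aldh1a1-high cells, and Tcf7l2 did not pass the test in either. Against cells low in both, Tcf7l2 also passed and was lower in Cyp11b1-high cells. Capitals mark a match to the TCF/LEF letters CTTTG followed by AA, AT, TA or TT, searched on both strands.
Axin2, chr11:108920099-108920348, plus strand, outside annotated genes: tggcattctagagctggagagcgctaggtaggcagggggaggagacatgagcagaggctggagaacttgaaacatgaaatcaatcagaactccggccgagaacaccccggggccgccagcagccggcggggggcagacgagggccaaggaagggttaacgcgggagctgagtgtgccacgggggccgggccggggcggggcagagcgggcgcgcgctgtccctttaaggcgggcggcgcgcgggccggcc
Nkd1, chr8:88527383-88527632, plus strand, within the GENCODE gene but outside its exons: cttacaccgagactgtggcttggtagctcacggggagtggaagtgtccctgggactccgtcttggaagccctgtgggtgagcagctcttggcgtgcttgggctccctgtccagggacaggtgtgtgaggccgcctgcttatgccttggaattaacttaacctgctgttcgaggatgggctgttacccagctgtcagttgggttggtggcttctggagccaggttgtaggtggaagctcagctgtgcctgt
Tcf7l2, chr19:55895071-55895320, plus strand, before a start inside the gene, outside exons: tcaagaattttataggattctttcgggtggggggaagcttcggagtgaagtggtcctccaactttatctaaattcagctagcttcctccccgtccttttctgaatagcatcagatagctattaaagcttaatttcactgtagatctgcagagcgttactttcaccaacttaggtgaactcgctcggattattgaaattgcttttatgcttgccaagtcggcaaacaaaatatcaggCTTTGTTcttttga
The Tcf7l2 window shown, before a start inside the gene, held CTTTGTT 14 bases before that start, while the window before its outer start (chr19:55741560-55741809) held none of the 4 sequences, and neither did the Axin2 and Nkd1 windows. Windows were at hand for 6 members (also Lgr4, Rnf43 and Tcf7), 9 windows in all, and 1 of the 9 held a match, beside 14.8% of the 32851 windows of all genes. No match says only that these letters are not in these 250 bases.

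Nkd1 varied widely between the cell groups. It stood at 38.2 CPM in library 1 and 4.99 CPM in library 2 in Aldh1a1-high cells, and at 59.1 and 50.3 CPM in Cyp11b1-high cells. Cyp11b1-intermediate cells had 137 and 121 CPM and cells low in both 197 and 205 CPM, against 194 and 208 CPM in Cyp11b2-high cells. Levels thus went up from Aldh1a1-high over Cyp11b1-high and Cyp11b1-intermediate cells, in the same order in each library, while cells low in both and Cyp11b2-high cells overlapped. In library 1 the intervals of Aldh1a1-high (23.7 to 58.4 CPM) and Cyp11b1-high cells (49.9 to 69.4 CPM) overlapped too. The library 1 level in Aldh1a1-high cells came from 21 UMIs in 7 of 28 cells, 9 of them in 1 cell, and the library 2 level from 2 UMIs. Leukocytes, which should lack the cortical programme, had 54.2 and 21.1 CPM of Nkd1, the first from 30 UMIs in 8 of 50 cells, up to 9 in 1 cell. The leukocyte group also held 407 and 148 CPM of Cyp11b1, so it carried cortical RNA and is no clean background. The source of that RNA was not tested. The intervals of leukocytes and Aldh1a1-high cells overlapped in each library.

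**Figure D1:**
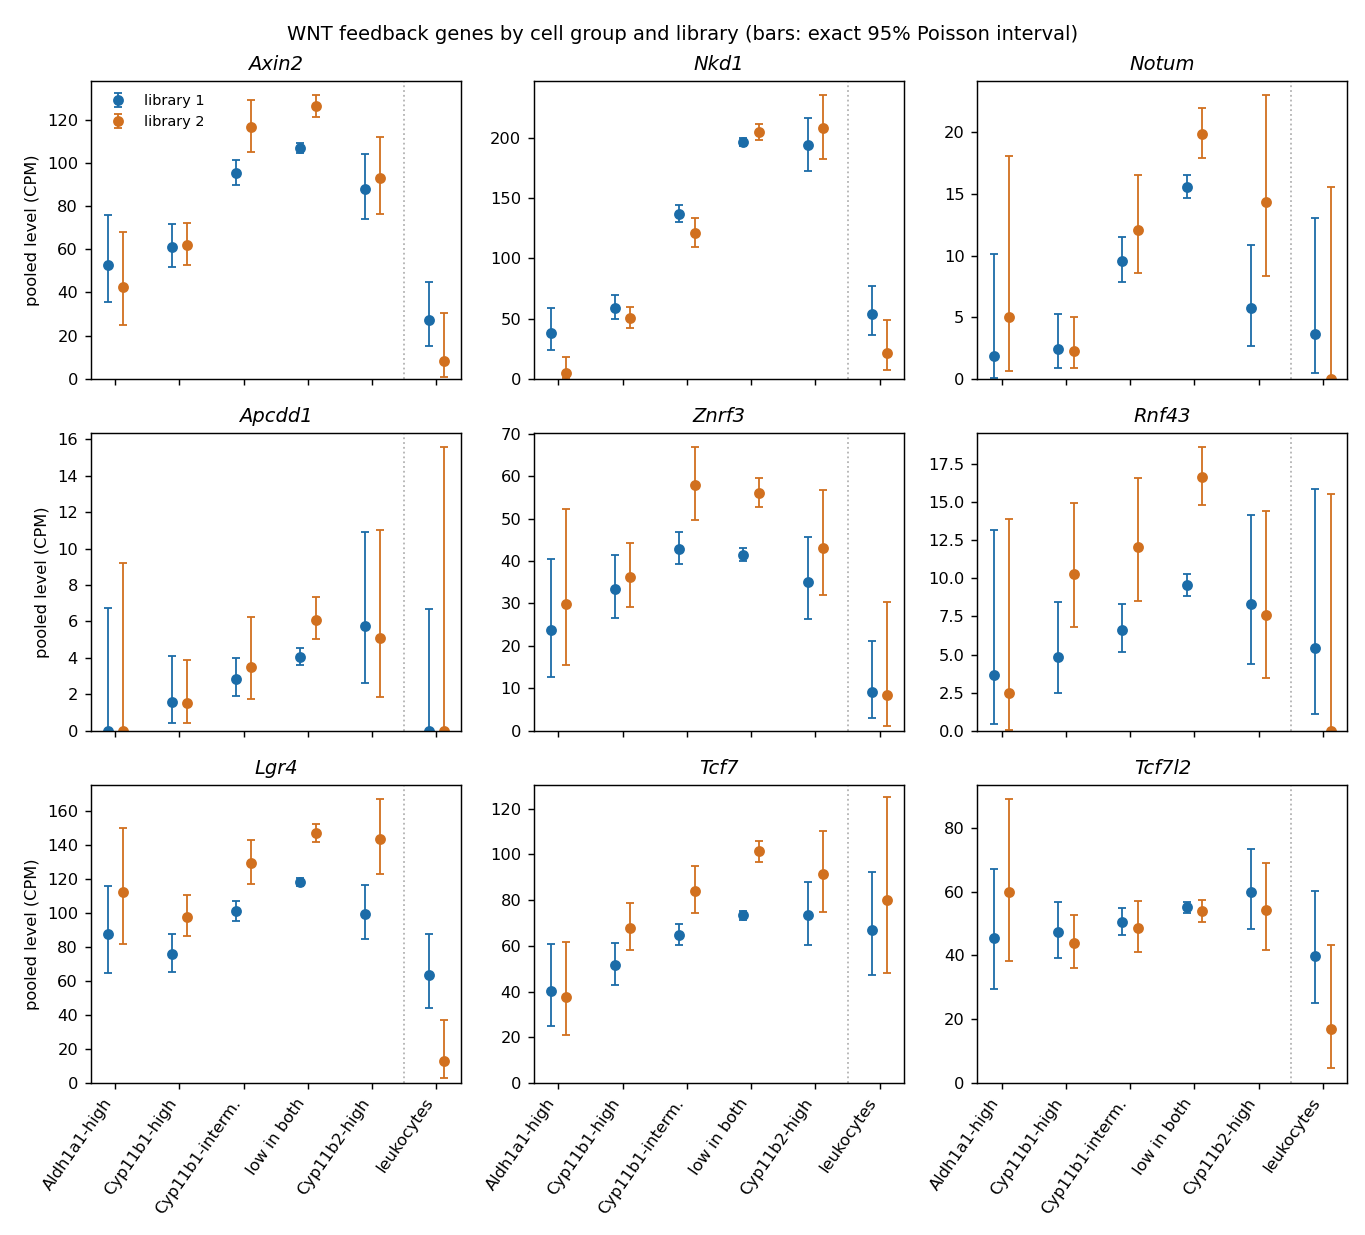
Pooled level of 9 members (y axis, CPM, from all UMIs of the group) in each cell group (x axis), with library 1 in blue and library 2 in orange and exact 95% Poisson intervals that cover counting error only. Nkd1 stood at 38.2 and 4.99 CPM in Aldh1a1-high cells against 194 and 208 CPM in Cyp11b2-high cells, while Tcf7l2 stayed between 43.8 and 59.9 CPM in the 5 cortical groups.

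Axin2 had a similar order, except that Cyp11b2-high cells lay below the Cyp11b1-intermediate and low-in-both cells in each library. It stood at 52.8 and 42.4 CPM in Aldh1a1-high cells, at 61.1 and 61.7 CPM in Cyp11b1-high cells, at 95.2 and 117 CPM in Cyp11b1-intermediate cells and at 107 and 126 CPM in cells low in both, against 88.0 and 93.0 CPM in Cyp11b2-high cells. Both libraries of the Aldh1a1-high and Cyp11b1-high groups lay below both libraries of the other groups, and the Aldh1a1-high and Cyp11b1-high intervals overlapped. Leukocytes had 27.1 and 8.43 CPM of Axin2.

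The secreted and membrane inhibitors were sparse. Notum stood at 1.82 and 4.99 CPM in Aldh1a1-high cells, which rests on 1 and 2 UMIs, at 2.41 and 2.29 CPM in Cyp11b1-high cells (6 UMIs in each library), at 9.52 and 12.1 CPM in Cyp11b1-intermediate cells and at 15.6 and 19.9 CPM in cells low in both, against 5.74 and 14.4 CPM in Cyp11b2-high cells. The libraries also differed in Cyp11b2-high cells, where 9 and 17 UMIs were seen. Apcdd1 had no UMI in Aldh1a1-high cells and stood at 1.61 and 1.52 CPM in Cyp11b1-high, 2.82 and 3.49 CPM in Cyp11b1-intermediate and 4.07 and 6.10 CPM in low-in-both cells, against 5.74 and 5.07 CPM in Cyp11b2-high cells. Over both libraries, Cyp11b2-high cells had 5.45 CPM of Apcdd1 (15 UMIs, interval 3.05 to 8.99). This is 1.73 times a floor of 3 UMIs over the Aldh1a1-high group. The interval of Aldh1a1-high cells reached 3.88 CPM, so the 2 intervals overlapped and the ratio is no lower bound.

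The ubiquitin ligases overlapped more between groups. Znrf3 stood at 23.7 and 29.96 CPM in Aldh1a1-high cells, at 33.4 and 36.2 CPM in Cyp11b1-high cells, at 42.9 and 57.8 CPM in Cyp11b1-intermediate cells and at 41.5 and 56.0 CPM in cells low in both, against 35.1 and 43.1 CPM in Cyp11b2-high cells. Rnf43 stood at 3.64 and 2.50 CPM in Aldh1a1-high cells (2 and 1 UMIs), at 4.82 and 10.3 CPM in Cyp11b1-high cells, at 6.61 and 12.1 CPM in Cyp11b1-intermediate cells and at 9.56 and 16.6 CPM in cells low in both, against 8.29 and 7.61 CPM in Cyp11b2-high cells. In cells low in both, Rnf43 was 1.74 times and Znrf3 1.35 times as high in library 2 as in library 1, the same cells having 1.04 times as much Nkd1. Cyp11b1-high and Cyp11b2-high cells overlapped in both genes.

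Of the R-spondin receptors, Lgr4 was present in every group and Lgr5 in none. Lgr4 stood at 87.4 and 112 CPM in Aldh1a1-high cells, at 76.0 and 97.9 CPM in Cyp11b1-high cells, at 101 and 130 CPM in Cyp11b1-intermediate cells and at 118 and 147 CPM in cells low in both, against 99.5 and 144 CPM in Cyp11b2-high cells. Here Aldh1a1-high cells were not the lowest group in either library. Lgr5 had 0 UMIs in 5958 cortical cells, which allows a share of cells with a UMI of up to 0.0504% and a level of up to 0.0268 CPM. Lgr6, the third receptor of this family, had 4 UMIs in all cortical groups together. Rspo1 had no UMI, while Rspo3, known as a ligand from the adrenal capsule, had 7.28 and 0 CPM in Aldh1a1-high cells, 5.63 and 1.14 CPM in Cyp11b1-high cells, 21.4 and 11.4 CPM in Cyp11b1-intermediate cells and 28.5 and 17.1 CPM in cells low in both, against 14.0 and 13.5 CPM in Cyp11b2-high cells. Rspo1, Rspo3 and Lgr6 were singled out after their values were seen.

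Tcf7 and Tcf7l2, of the same transcription factor family, had different patterns. Tcf7 stood at 40.1 and 37.5 CPM in Aldh1a1-high cells, at 51.4 and 67.8 CPM in Cyp11b1-high cells, at 64.9 and 84.2 CPM in Cyp11b1-intermediate cells and at 73.4 and 101 CPM in cells low in both, against 73.3 and 91.3 CPM in Cyp11b2-high cells. Leukocytes had 66.8 and 80.1 CPM of Tcf7, which T cells also express. Tcf7l2 stood at 45.5 and 59.9 CPM in Aldh1a1-high cells, at 47.4 and 43.8 CPM in Cyp11b1-high cells, at 50.5 and 48.6 CPM in Cyp11b1-intermediate cells and at 55.1 and 53.9 CPM in cells low in both, against 59.9 and 54.1 CPM in Cyp11b2-high cells, with intervals that overlapped within each library.

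Differences were tested with edgeR's quasi-likelihood test on UMIs summed per group and library (10 sums, 10956 genes, n = 2 libraries), with Benjamini-Hochberg adjusted p-values and a threshold of 0.05. They are given as log2 differences ± SE, where the SE is the difference divided by the square root of the test's F statistic. This SE rests on a spread shared over all sums and drawn towards that of other genes (15.1 prior degrees of freedom), not on 2 libraries alone. Nothing in the labels says how the libraries differ in their animals, so the p-values measure how far group differences varied between these libraries, which may be technical. Lgr5 could not be tested. The comparisons with Cyp11b2-high cells share those cells, so their values are given side by side and not as independent of each other. A single gene's level in these sums also cannot tell fewer cells expressing it from less RNA per cell.

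In Cyp11b1-high over Cyp11b2-high cells, 6 of the 9 tested members fell and none rose, where 13.3% of all genes tested fell. Nkd1 fell by 1.93 on the log2 scale (SE 0.15, edgeR adjusted p 1.08e-08), with -1.77 in library 1 alone and -2.11 in library 2 alone. Axin2 fell by 0.63 (SE 0.12, edgeR adjusted p 0.000849), and Lgr4 and Tcf7 each fell by 0.53 (SE 0.11 and 0.13, edgeR adjusted p 0.00168 and 0.00369). The sparse inhibitors Notum (-2.09 ± 0.49, edgeR adjusted p 0.00328) and Apcdd1 (-1.89 ± 0.62, edgeR adjusted p 0.0334) also fell. Tcf7l2 (-0.39 ± 0.15, edgeR adjusted p 0.0646), Znrf3 (-0.23 ± 0.17) and Rnf43 (-0.19 ± 0.39) did not pass, and Rnf43 differed in sign between the libraries (-0.82 and 0.36). Without a library term, Apcdd1, Lgr4 and Tcf7 no longer passed, and with every cell thinned to 5000 UMIs Axin2 (edgeR adjusted p 0.206), Notum (0.407) and Tcf7 (0.0562) no longer passed. Apcdd1 was not tested with thinned cells. Against cells low in both in place of Cyp11b2-high cells, a comparison added after the data were seen, all 9 tested members passed and were lower, where 14.5% of all genes were lower, with Znrf3 at -0.51 (edgeR adjusted p 0.00139) and Rnf43 at -0.81 (0.0120).

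In Cyp11b1-intermediate over Cyp11b2-high cells, 1 of the 9 tested members fell, Nkd1 (-0.70 ± 0.12, edgeR adjusted p 0.000568), where 8.44% of all genes fell. The others lay between -0.86 ± 0.47 for Apcdd1 and 0.27 ± 0.14 for Znrf3. The Nkd1 call was lost without a library term (edgeR adjusted p 0.407). In cells low in both over Cyp11b2-high cells, none of the 9 passed, where 7.02% of all genes passed in either direction. Axin2 (0.33 ± 0.10, edgeR adjusted p 0.0503) and Notum (0.86 ± 0.27, edgeR adjusted p 0.0655) were the 2 with an unadjusted p under 0.05, DESeq2 also called none, and Nkd1 differed by -0.02 ± 0.12. Without the low-count filter both Axin2 and Notum passed (edgeR adjusted p 0.0257 and 0.0240).

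**Figure D2:**
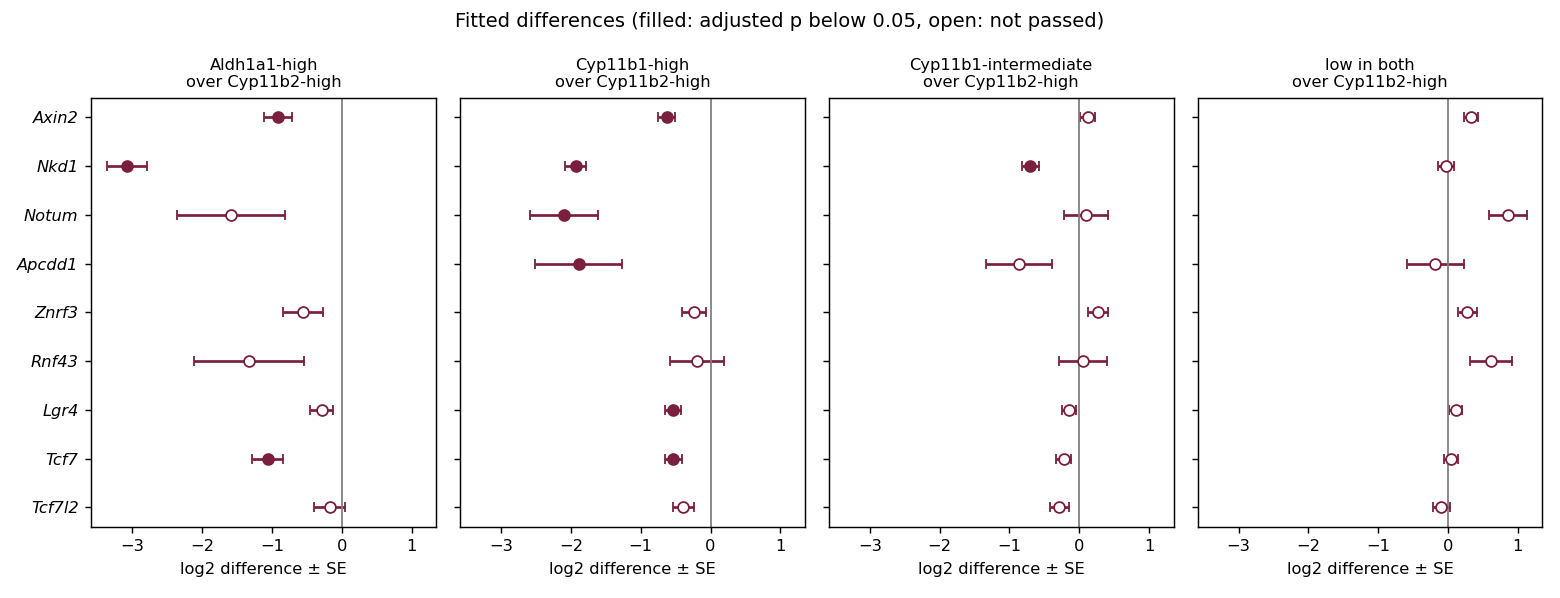
Fitted log2 difference ± SE (x axis) of each member (y axis) in 4 comparisons with Cyp11b2-high cells, filled where the edgeR adjusted p was below 0.05. Nkd1 lay at -3.08, -1.93, -0.70 and -0.02 from the left to the right panel, and Apcdd1 is left out of the first panel because Aldh1a1-high cells had no UMI of it.

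In Aldh1a1-high over Cyp11b2-high cells, 4 of the 9 tested members were called lower and none higher, where 13% of all genes were lower. The 4 include Apcdd1, which had no UMI in Aldh1a1-high cells and passed the low-count filter only through other groups. Its call is therefore no support. Nkd1 fell by 3.08 on the log2 scale (SE 0.29, edgeR adjusted p 1.17e-07), with -2.40 in library 1 alone. In library 2 it rested on 2 UMIs against 246 in Cyp11b2-high cells, a ratio of 0.0240 (counting interval 0.00289 to 0.0877). Tcf7 (-1.06 ± 0.22, edgeR adjusted p 0.000911) and Axin2 (-0.91 ± 0.20, edgeR adjusted p 0.00218) followed, and Axin2 no longer passed with thinned cells (edgeR adjusted p 0.370). The fourth was Apcdd1 (edgeR adjusted p 0.0354, DESeq2 0.0503), whose counts and overlapping intervals are given above. Lgr4 (-0.28 ± 0.16), Znrf3 (-0.56 ± 0.28) and Tcf7l2 (-0.17 ± 0.22) did not pass. Notum and Rnf43 did not pass either: with 3 UMIs each in Aldh1a1-high cells, their ratios to Cyp11b2-high cells were 0.334 (counting interval 0.0647 to 1.09) and 0.395 (0.0757 to 1.31).

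In Aldh1a1-high over Cyp11b1-high cells, 1 of the 9 fell, Nkd1 (-1.14 ± 0.35, edgeR adjusted p 0.0430), where 4.51% of all genes fell. The value was -0.63 in library 1 alone, and in library 2 a ratio of 0.0993 (counting interval 0.0119 to 0.366) from 2 UMIs against 132 in Cyp11b1-high cells. The call was lost without a library term (edgeR adjusted p 0.282) and with thinned cells (0.0994). Lgr4 differed by 0.25 ± 0.17, which did not pass (-0.089 with thinned cells). Both groups were low in zona glomerulosa markers, with the 5 of that list besides Cyp11b2 summing to 566 and 155 CPM in Aldh1a1-high cells and to 934 and 1159 CPM in Cyp11b1-high cells, beside 3957 and 5444 CPM in Cyp11b2-high cells.

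Finer steps of Cyp11b1 in cells below the other thresholds gave Nkd1 a graded course. From cells with no Cyp11b1 UMI upward, through those above 0, from 500, from 1000, from 2000 and from 4000 CPM, Nkd1 stood at 204, 182, 159, 110, 62.7 and 39.1 CPM in library 1 and at 211, 191, 127, 115, 57.6 and 35.6 CPM in library 2. Each step was lower than the one before it in both libraries, but the intervals of the third and the fourth step overlapped in library 2, as did those of the last pair of steps in each library. Axin2 stood at 106, 108, 99.1, 90.4, 64.6 and 41.7 CPM in library 1 and at 134, 109, 120, 113, 68.4 and 48.2 CPM in library 2, so its lower levels were in cells from 2000 CPM. Lgr4 ran from 121 to 67.7 CPM in library 1 and from 150 to 91.8 CPM in library 2, with a lower value at each step but overlapping intervals between neighbouring steps, except the first pair in library 1. Tcf7l2 ran from 55.1 to 41.7 CPM in library 1 and from 54.8 to 45.9 CPM in library 2, with overlapping intervals at the ends. Notum, from 16.9 CPM in library 1 and 21.8 CPM in library 2 where Cyp11b1 had no UMI, had 0 and 1.15 CPM in the last step. Znrf3 stood at 40.5 and 57.1 CPM in the first step and at 20.8 and 32.1 CPM in the last, and Tcf7 at 72.2 and 106 CPM in the first and 33.9 and 71.2 CPM in the last. The last step of library 1 held 23 cells, and these values are descriptions with no test.

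**Figure D3:**
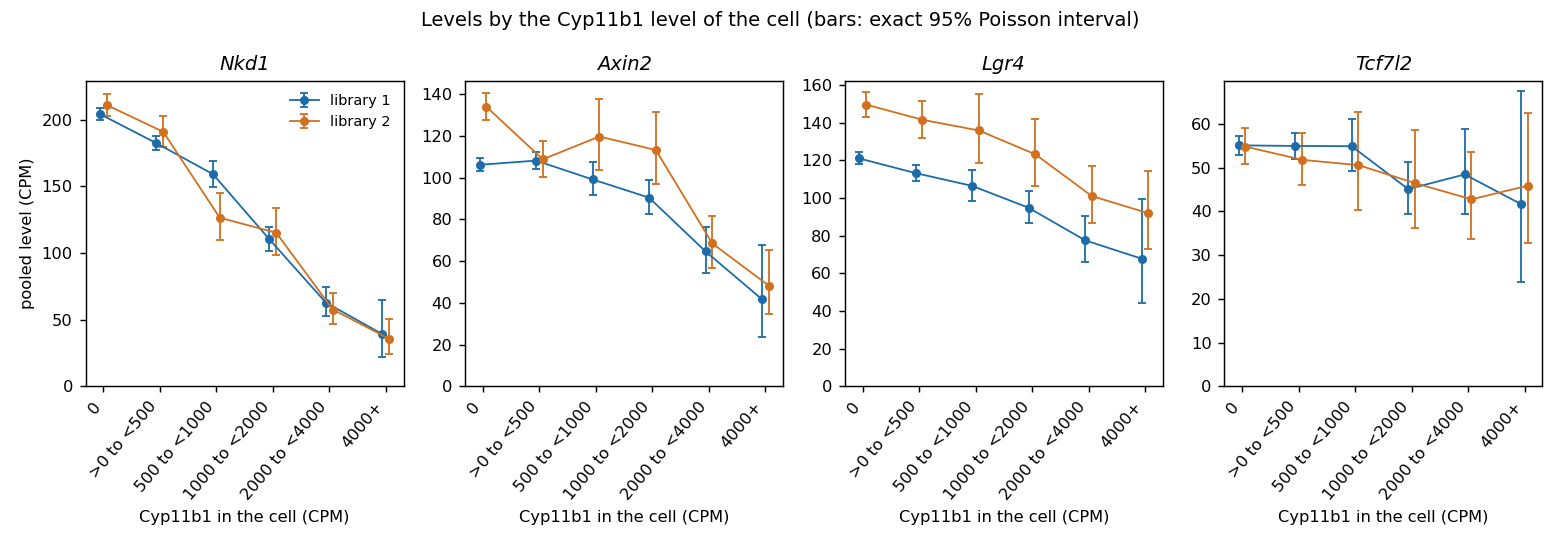
Pooled level in CPM (y axis, from 0) of 4 members by the Cyp11b1 level of the cell (x axis, 6 steps), with library 1 in blue, library 2 in orange and exact 95% Poisson intervals. Nkd1 ran from 204 to 39.1 CPM in library 1 and from 211 to 35.6 CPM in library 2, while Tcf7l2 stayed between 41.7 and 55.1 CPM.

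Shares of cells with a UMI were taken after thinning each cell to 5000 UMIs. Nkd1 was seen in 7.14% and 8% of Aldh1a1-high cells (exact Clopper-Pearson 95% interval 0.877 to 23.5 and 0.984 to 26.0), in 29.5% and 15.0% of Cyp11b1-high, 44.6% and 44.1% of Cyp11b1-intermediate and 58.9% and 60.1% of low-in-both cells, against 60.6% and 56.7% of Cyp11b2-high cells. Before thinning, the shares were 25.0% and 8% in Aldh1a1-high cells and 95.8% and 91.7% in Cyp11b2-high cells. Leukocytes, with medians of 9179.5 and 7134.5 UMIs, had 8% and 3.33% after thinning, with intervals that overlapped those of Aldh1a1-high cells. Nkd1 in Aldh1a1-high cells thus could not be told at this depth from the leukocyte level, which itself includes cortical RNA. Axin2 was seen in 25.0% and 20% of Aldh1a1-high cells, against 32.4% and 30% of Cyp11b2-high cells and 2.00% and 0% of leukocytes. Lgr4 was seen in 25.0% and 44.0% of Aldh1a1-high and 28.8% and 37.1% of Cyp11b1-high cells, against 47.9% and 55% of Cyp11b2-high cells. Tcf7 was seen in 10.7% and 4% of Aldh1a1-high and 24.0% and 28.7% of Cyp11b1-high cells, against 33.8% and 45.0% of Cyp11b2-high cells. Znrf3 was seen in 7.14% and 4% of Aldh1a1-high and 15.1% and 15.6% of Cyp11b1-high cells, against 16.9% and 23.3% of Cyp11b2-high cells. For Tcf7l2 the shares were 14.3% and 36.0% in Aldh1a1-high and 17.1% and 16.2% in Cyp11b1-high cells, against 25.4% and 20% in Cyp11b2-high cells, so the libraries differed in order. Cells with no UMI of any member made up 32.1% and 36.0% of Aldh1a1-high, 22.6% and 24.6% of Cyp11b1-high, 14.8% and 6.37% of Cyp11b1-intermediate and 6.74% and 2.89% of low-in-both cells, against 5.63% and 5.00% of Cyp11b2-high cells.

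**Figure D4:**
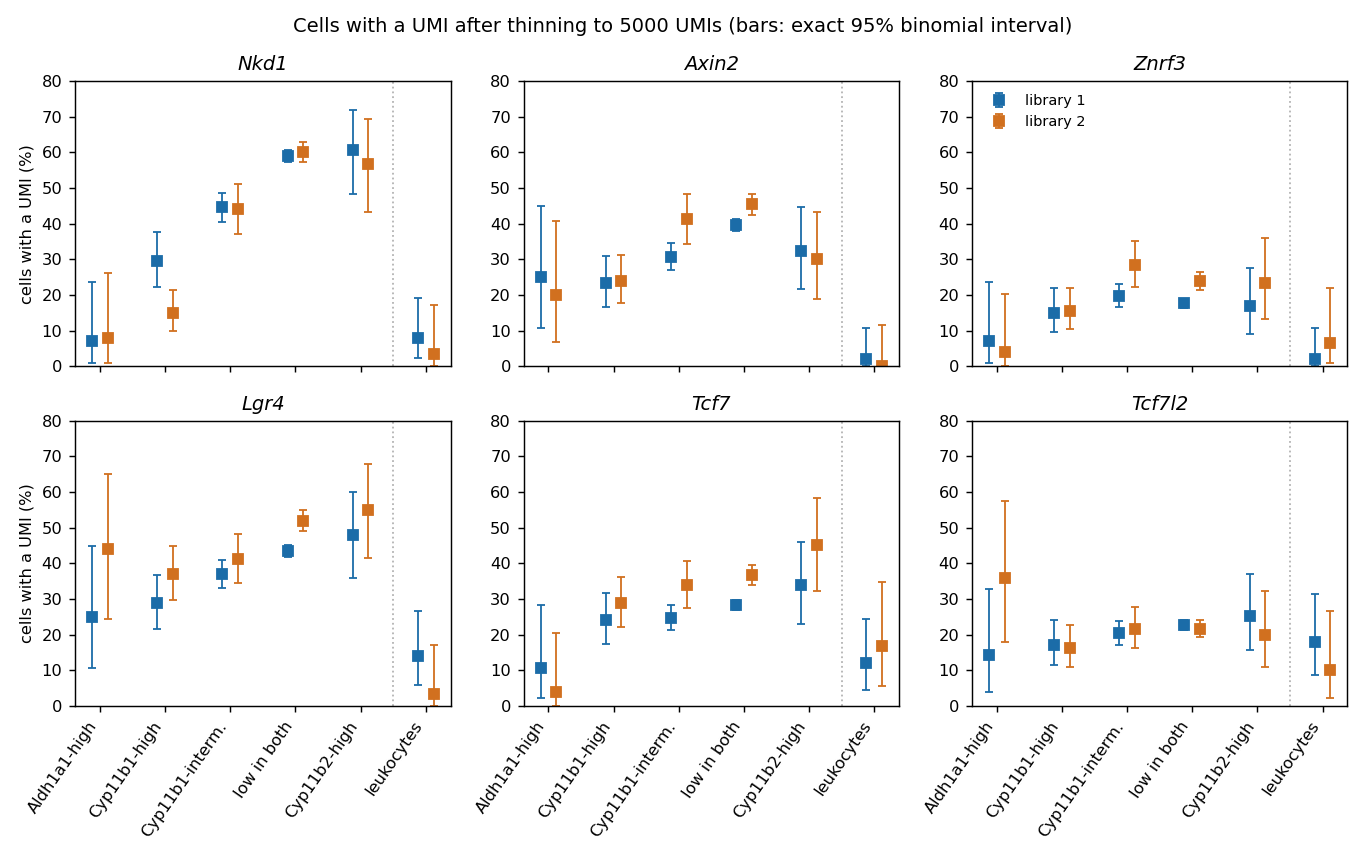
Share of cells with a UMI in percent (y axis) of 6 members by cell group (x axis) after thinning to 5000 UMIs per cell, with exact 95% binomial intervals, library 1 in blue and library 2 in orange. Nkd1 was seen in 7.14% and 8% of Aldh1a1-high cells against 60.6% and 56.7% of Cyp11b2-high cells, and in 8% and 3.33% of leukocytes.

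Within cells low in both, the thinned cells also show how members were seen together, as descriptions with no test. Of cells with an Axin2 UMI, 59.9% in library 1 and 64.9% in library 2 also had Nkd1, against 58.3% and 56.2% of cells without Axin2. Of cells with Notum, 67.3% and 68.7% had Nkd1, against 58.2% and 59.3% of cells without it. Tcf7 went with Axin2 in library 1 (31.7% against 26.0%) and away from it in library 2 (33.4% against 39.3%).

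Across the 10 sums, centred per library, Nkd1 and Tcf7 had the closest patterns of any pair of members with at least 20 CPM (Pearson's r 0.99), Znrf3 and Axin2 followed (0.95), and Tcf7l2 correlated with the others between 0.04 and 0.54. These sums share libraries and groups, so the correlations are descriptions. Among 6563 genes with at least 20 CPM, the nearest to Nkd1 were Hmgb3, Dpysl2 and Pla2g2f (highest r 0.999), to Axin2 Auts2, Dab2ip and Bmt2 (0.996), and to Tcf7 Cdk18, Zfyve21 and Slc16a1 (0.998). The nearest to Znrf3 were Srrm1, Senp6 and Dab2ip (0.982), to Lgr4 Cpe, Rock2 and Sfxn1 (0.971), and to Tcf7l2 Usp12, Ykt6 and Gna14 (0.941).

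Of a wider list of 75 WNT pathway genes without the members, 59 were tested. In Cyp11b1-high over Cyp11b2-high cells, 6 rose and 19 fell (median log2 difference -0.13, against 0.01 over all genes), where 11.4% and 13.3% of all genes rose and fell. Wnt5a, a ligand known mainly for beta-catenin-independent signalling, rose by 2.25 ± 0.22 on the log2 scale, with 63.9 and 61.0 CPM in Cyp11b1-high cells against 15.9 and 8.45 CPM in Cyp11b2-high cells. Ctnnbip1, an inhibitor of beta-catenin's binding to TCF, rose by 1.23 ± 0.19. The largest fitted falls were of Wif1, a secreted WNT inhibitor, with 1 UMI in Cyp11b1-high and 17 in Cyp11b2-high cells (ratio 0.0317, counting interval 0.000757 to 0.202), and Amer2, of the Amer family of Apc-binding proteins, with 3 and 18 UMIs (ratio 0.0897, 0.0169 to 0.307). Wif1 in Cyp11b2-high cells came mostly from library 1, with 15 UMIs against 2 in library 2. Lef1, another TCF/LEF factor, fell by 1.39 ± 0.18 in Cyp11b1-high and by 2.03 ± 0.32 in Aldh1a1-high cells, both over Cyp11b2-high cells. Ctnnb1, which encodes beta-catenin itself, differed by -0.09 ± 0.09 in Cyp11b1-high cells and did not pass, and both were singled out after their values were seen.

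In Cyp11b1-intermediate over Cyp11b2-high cells, 5 of the 59 rose and 7 fell, where 6.2% and 8.44% of all genes did. Tle2, a corepressor of TCF (1.43 ± 0.14), and Wnt5a (1.40 ± 0.23) rose, and Wif1 (-2.69 ± 0.65) and Dkk3 (-2.24 ± 0.19), of the Dickkopf family, fell. In cells low in both over Cyp11b2-high cells, 3 rose and 2 fell, where 2.77% and 4.24% of all genes did, with Tle2 (1.16 ± 0.14) and Ctnnbip1 (0.71 ± 0.17) higher and Dkk3 (-1.62 ± 0.16) and the WNT co-receptor Lrp6 (-0.33 ± 0.10) lower. Dkk3 stood at 1.82 and 0 CPM in Aldh1a1-high, at 12.7 and 16.8 CPM in Cyp11b1-intermediate and at 20.9 and 18.6 CPM in low-in-both cells. Both libraries of Cyp11b2-high cells, at 66.9 and 52.4 CPM, lay above all of these. In Cyp11b1-high over Cyp11b2-high cells Dkk3 also passed and was lower (-2.83 ± 0.24), a value singled out after it was seen.

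In Aldh1a1-high over Cyp11b2-high cells, 7 of the 59 rose and 15 fell (median -0.15, against -0.03 over all genes), where 13.2% and 13% of all genes did. Wnt5a (2.65 ± 0.28) and the corepressor Tle3 (2.02 ± 0.32) rose. Dkk3, with 1 UMI in Aldh1a1-high and 167 in Cyp11b2-high cells (ratio 0.0173, counting interval 0.000437 to 0.0980), and Sp5, a transcription factor induced by WNT, with 3 and 78 UMIs (ratio 0.111, 0.0225 to 0.338), fell. In Aldh1a1-high over Cyp11b1-high cells, 2 rose and 3 fell, where 6.37% and 4.51% of all genes did. Tcf7l1, a mostly repressive TCF (1.23 ± 0.39), and Tle3 (1.06 ± 0.26) rose, and Reck, a membrane co-receptor (-1.74 ± 0.51), and Wnt4, a ligand of the adrenal cortex (-1.88 ± 0.33), fell. Wnt4 stood at 448 and 35.0 CPM in Aldh1a1-high cells, against 948 and 886 CPM in Cyp11b1-high cells, so the libraries differed widely in the Aldh1a1-high group, as they did for Nkd1.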

How the data were processed

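The authors deposited UMI counts per gene and cell barcode for each library, made with Cell Ranger on mm10 per the submitters' processing notes, with software version 3.1.0 per the file headers and 3′ kit version 3.1 per the labels. These counts were used as deposited. Values in percent and CPM were computed here. No other column of per-sample values was found (0), and 31011 of the 31057 features were in the GENCODE annotation.

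Cells were kept with at least 5000 UMIs (so that 1 UMI is at most 200 CPM) and 500 genes and at most 30% mitochondrial UMIs, and scrublet's highest scores (0.8% per 1000 barcodes) were removed as doublets. Leukocytes had at least 2 of 8 markers and 300 CPM of them; cortical cells had at least 2000 CPM of Star, Cyp11a1, Fdx1 and Hsd3b1 together. Groups are rebuilt from thresholds and are not the authors' annotation. The group with both Cyp11b1 and Cyp11b2 from 500 CPM (4 cells in library 1 and 1 in library 2) fell under the minimum of 10 cells and was not tested.

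UMIs were summed per group and library. edgeR 4.0.16 (TMM, filterByExpr, quasi-likelihood test with a group and a library term, 4 residual degrees of freedom) was run on 10956 genes, with p-values adjusted over all of them, and was checked on simulated data. Sums of 1 library come from the same cell suspension, so the library term is a pairing by construction. Alternatives were a DESeq2 1.42.0 fit, RLE size factors, testing genes of any count, leaving out the library term, thinning cells, halving or doubling the thresholds, keeping doublets, at most 15% mitochondrial UMIs, leaving out cycling cells, each library alone, and, added after seeing the data, cells from 1000 UMIs and cells low in both as the comparison group. Intervals (exact Poisson and Clopper-Pearson, 95%) cover counting error only. Python 3.11.15, numpy 2.4.6, scipy 1.17.1, pandas 2.3.3, scanpy 1.11.5 and R 4.3.3 were used.

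The members and lists were chosen with earlier results of these data known. All members were named, with the 2 WNT list genes of largest called difference in each direction per comparison and, for members averaging 20 CPM, the 3 genes of most similar pattern on log2(CPM + 1).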

Additional observations from a re-analysis of the deposited data

Results flagged for a closer look

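Kept cells that met neither the leukocyte nor the cortical rule (10 in library 1 and 8 in library 2, of which 9 and 5 were cycling) were used in no comparison, and 5 members had more than 3 UMIs in them in each library, which says only that their UMIs were present. Axin2 stood at 82.4 CPM in library 1 and 221 CPM in library 2, Nkd1 at 156 and 244 CPM, and Tcf7 at 52.1 and 125 CPM. Znrf3 stood at 39.0 and 66.4 CPM and Lgr4 at 39.0 and 51.7 CPM. Of the others, Tcf7l2 had 7 and 3 UMIs, Notum 3 and 2, Apcdd1 2 and 3, Rnf43 2 and 1, and Lgr5 none.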

How the results depend on the processing

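Of 480 member differences under alternatives with a test, 432 kept their direction and side of the threshold, 11 lost and 19 gained the call in the same direction, and 18 changed sign. None of the 18 was past the threshold as reported, and 2 passed it with the other sign: Notum and Rnf43 in Cyp11b1-intermediate cells against cells low in both (edgeR adjusted p 0.00137 and 0.0310). Over the 5 comparisons together and in the same direction, 6 calls were gained with halved thresholds, and with thinned cells 1 was gained and 5 were lost. The count of members called in Cyp11b1-high over Cyp11b2-high cells was 6, and 3 without a library term (no replicate block, 4.1% of all genes lower) and 2 with thinned cells (7.33%), where Apcdd1 was not tested. In Cyp11b1-intermediate cells it was 1, and 0 without a library term, 2 with halved thresholds (11% of all genes lower) and 5 against cells low in both (4.65%). In cells low in both it was 0, and 2 without the low-count filter, 1 with doublets kept and 1 with cells from 1000 UMIs, all higher (2.96%, 2.82% and 2.97% of all genes higher). In Aldh1a1-high over Cyp11b2-high cells it was 4, with Apcdd1 among them, and 7 with halved thresholds (16.1% of all genes lower) and 7 against cells low in both (13.3%). Over Cyp11b2-high cells the count also lost Axin2 with thinned cells (edgeR adjusted p 0.370) and Apcdd1 with DESeq2 (adjusted p 0.0503). In Aldh1a1-high over Cyp11b1-high cells it was 1, and 0 without a library term, 0 with thinned cells and 2 with halved thresholds (7.52% of all genes lower). Calls over all genes without a library term numbered 872 in Cyp11b1-high, 194 in Cyp11b1-intermediate, 6 in low-in-both and 1733 in Aldh1a1-high over Cyp11b2-high cells and 316 in Aldh1a1-high over Cyp11b1-high cells, against 2709, 1604, 769, 2871 and 1192 with it, and with thinned cells 1214, 658, 299, 1290 and 489. Signs turned in Cyp11b1-intermediate cells for Axin2 (-0.21), Notum (-0.76), Znrf3 (-0.011) and Rnf43 (-0.56) against cells low in both, for Notum (-0.25) with halved thresholds, and for Rnf43 with thinned cells (-0.37) and doublets kept (-0.060). In cells low in both they turned for Nkd1 without the filter (0.018) and thinned (0.033), for Lgr4 thinned (-0.11) and with halved thresholds (-0.059), and for Tcf7 under the same settings (-0.24 and -0.076). In Aldh1a1-high over Cyp11b1-high cells they turned for Axin2 (0.025) and Znrf3 (0.014) with doubled thresholds, for Notum thinned (-0.0063) and with halved thresholds (-1.19), and for Lgr4 thinned (-0.089). The cause of these changes was not tested. Doubled thresholds left 6 and 7 Cyp11b2-high cells, so comparisons with them were not run, and a single library leaves no residual degrees of freedom. Thinning discards most UMIs, and Notum, Apcdd1 and Rnf43 are limited by their counts. The part of either in the lost calls was not tested.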
